A study of Mus musculus with 6 samples.

Results

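The genes described are 7 genes of cholesterol synthesis and of its control by the transcription factor SREBP2, namely Hmgcs1, Idi1, Fdft1, Sqle, Cyp51, Srebf2 and Insig1. They were chosen by name, and all 7 were found among the 13363 genes with deposited values, after matching Entrez gene IDs to mouse symbols. RNA of the gastrocnemius, the large calf muscle, was sequenced from 3 mice bearing C26 tumors and 3 control mice without a tumor. The C26 line comes from a mouse colon carcinoma and is widely used to model cancer cachexia. All mice were male BALB/c, bought at 6 weeks of age and kept for 1 week before the start, and the C26 mice received 500000 C26 cells under the skin of the right flank. No allele or drug was added in either group. The day on which the sequenced muscles were taken is not given with the sequencing, and nothing states that each library came from a single mouse, so the p-values measure the spread between these 6 samples.

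Cholesterol is built from acetyl-CoA in a long chain of enzymes. The mevalonate arm ends at farnesyl diphosphate, and the sterol arm begins when FDFT1 (squalene synthase) joins farnesyl diphosphate units into squalene. When membranes of the endoplasmic reticulum run low in sterol, the escort protein SCAP carries SREBP2 to the Golgi, proteases release its active part, and it raises the genes of nearly every enzyme of the chain. INSIG proteins hold SCAP and SREBP2 back when sterol is plentiful. SREBP1, the product of Srebf1, works in the same way and acts more on fatty acid synthesis. Muscle fibers need cholesterol for the sarcolemma and the T-tubules, and the mevalonate arm also supplies ubiquinone, dolichol and the lipid anchors of small GTPases.

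The promoters are shown first, because SREBP2 is known to act on these genes through a sterol regulatory element (SRE) next to a CCAAT box, which binds NF-Y. RefSeq sequences were found for 5 of the 7 genes, and the 250 bases before the start that RefSeq annotates were searched on both strands, in GRCm38.p6. The motifs searched were TCACNNCA, a loose form of the SRE in which N is any base, the CCAAT box CCAAT, and the E-box CACGTG, and no match of any of these overlapped another in the sequences printed. They were chosen with the sequences in view. Sqle and Fdft1 had no entry. For Idi1, which was lower in C26 muscles, and Insig1, which was not, all 250 bases are given, on the plus strand at chr13:8885356-8885605 and chr5:28071162-28071411. For Hmgcs1, Cyp51 and Srebf2 the 60 bases around the SRE-like match are given, from chr13:119690188-119690247 on the plus strand, chr5:4104752-4104811 on the minus strand and chr15:82147081-82147140 on the plus strand. GENCODE places a start further upstream for Idi1 and Insig1, within the stretch printed, and for Cyp51 and Srebf2, downstream of the stretch printed. The CCAAT box of Cyp51, which is not in its printed stretch, and the CCAAT boxes marked for Idi1 therefore lie inside the GENCODE genes. All are written 5′ to 3′ on the strand of the gene. Capitals mark the motif matches, and ATTGG is the CCAAT box on the other strand.
Idi1: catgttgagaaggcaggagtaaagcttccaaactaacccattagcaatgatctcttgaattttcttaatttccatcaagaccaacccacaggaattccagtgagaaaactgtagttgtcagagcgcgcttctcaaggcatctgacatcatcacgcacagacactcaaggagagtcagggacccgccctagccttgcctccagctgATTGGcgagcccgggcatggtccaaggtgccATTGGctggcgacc
Insig1: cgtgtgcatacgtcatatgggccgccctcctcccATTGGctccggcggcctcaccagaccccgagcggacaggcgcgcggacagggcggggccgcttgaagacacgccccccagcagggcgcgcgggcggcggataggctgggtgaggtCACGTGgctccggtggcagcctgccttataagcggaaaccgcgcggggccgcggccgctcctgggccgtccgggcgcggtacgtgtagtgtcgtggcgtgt
Hmgcs1: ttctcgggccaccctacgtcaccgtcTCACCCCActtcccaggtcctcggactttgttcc
Cyp51: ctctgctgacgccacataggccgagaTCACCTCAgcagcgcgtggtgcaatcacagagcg
Srebf2: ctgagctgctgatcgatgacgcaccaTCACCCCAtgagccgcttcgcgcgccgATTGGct

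A CCAAT box was present in all 5 promoters and in 33.8% of the 32851 promoter windows of the table. The SRE-like letters were found in Hmgcs1, Cyp51 and Srebf2, against 11.4% of all windows. Insig1 held the only E-box, at 101 bases before the start, against 6.02% of all windows. In Srebf2 and Hmgcs1 the SRE-like match read TCACCCCA, and in Cyp51 it read TCACCTCA. Srebf2 held a further match, TGCCGTGA on the gene's strand, outside the stretch printed. A match is a description of the letters and was not tested for binding.

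The files give FPKM, that is, fragments scaled by transcript length and by the number of mapped reads, estimated by the authors. The FPKM of a sample summed to 531061 to 585169 in the tumor group and to 626992 to 688300 in the controls. For the tests they were rescaled to a common sum, scaled by trimmed mean factors between 0.903 and 1.08, and log2-transformed after adding 1, so that a log2 fold change understates the change of genes with low values. The groups were compared with limma, with Benjamini-Hochberg adjustment over all 13363 genes, and "called" below means an adjusted p under 0.05. The extraction text of the labels names, beside gastrocnemius, a human monocytic line, whereas the methods of the study name muscle, and muscle genes were abundant in every library. Acta1, skeletal actin, had 10781 to 19513 FPKM in C26 muscles and 25506 to 27269 in controls, and Ckm, muscle creatine kinase, had 14314 to 18555 and 25124 to 26160. The 7 muscle markers summed to 54317 to 82585 FPKM in C26 muscles and 120692 to 128768 in controls. Of these 7, Mylpf, a fast myosin light chain, and Pvalb, parvalbumin, were called lower, at -1.95 and -2.59, and 5 were not called. The log2 changes were negative in 5 and positive in 2, namely Myh1 (2.13) and Myh4 (0.23). The part of these muscle marker changes in the results was not tested. Control replicate 3 stood apart. It had 134 FPKM of Cd79b, a B cell receptor gene, against at most 0.82 in the others, and its 9 fat cell markers summed to 550 FPKM against 4212 and 2108 in the other controls and 261 to 397 in C26 muscles. For Idi1, Sqle, Cyp51 and Srebf2, which were highest there, the value without it is given too. In whole muscle, fewer cells of a type and less RNA per cell cannot be told apart.

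In C26 muscles Fdft1 rose 6.44-fold and Idi1 fell, being 2.77-fold higher in the controls, both on the rescaled values after adding 1. The means of the deposited FPKM differed 5.73-fold for Fdft1 and 4.58-fold for Idi1. The other 5 genes were not called. Sqle, Cyp51, Srebf2 and Hmgcs1 had lower means in C26 muscles, and Insig1 had a higher mean. So 1 of the 7 genes was called higher, where 19.4% of all genes were, and 1 was called lower, where 14.5% of all genes were. For 5 of the 7 genes the ranges of both groups were separate (53.3% of all genes), with C26 below in 4 (34.6% of all genes) and above in 1 (18.7% of all genes). The median log2 change was -0.70 for the 7 genes and -0.05 for all genes.

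**Figure D1:**
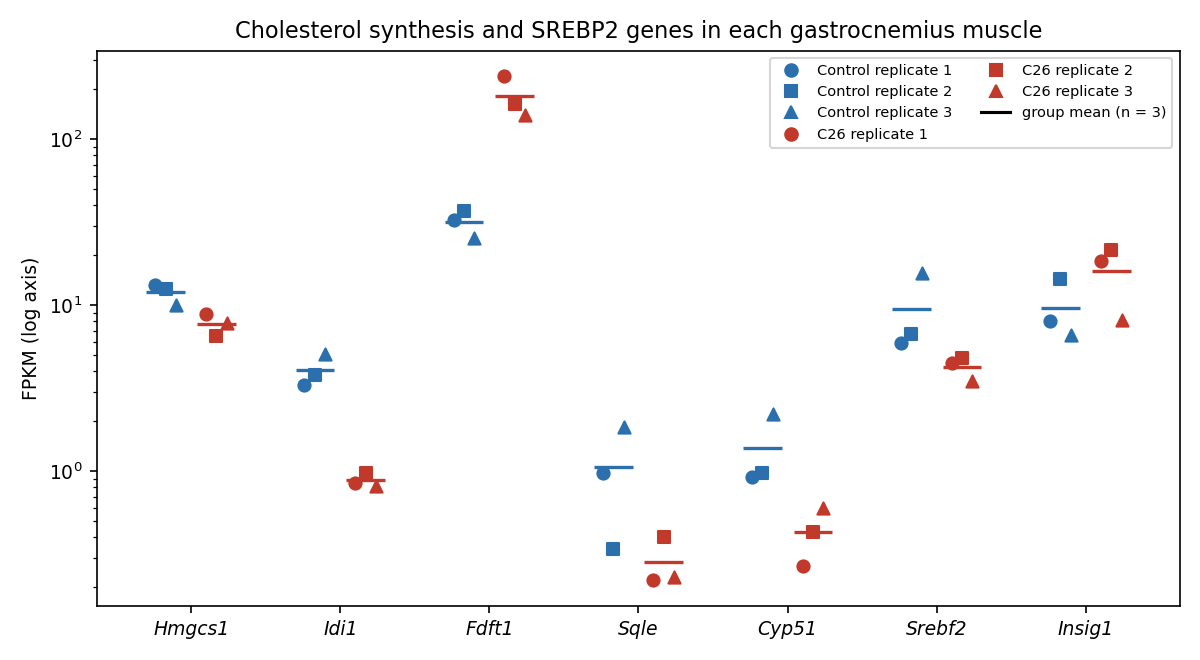
FPKM of the 7 genes, on a log axis, in each control (blue) and C26 (red) muscle, with a symbol for each replicate number and a bar at the group mean of 3. Fdft1 sits at 139 to 240 in C26 muscles and 25.3 to 36.8 in controls, Idi1 lies below 1 in every C26 muscle, and Sqle and Insig1 overlap between the groups.

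HMGCS1 makes HMG-CoA from acetoacetyl-CoA and acetyl-CoA, early in the mevalonate arm. Hmgcs1 (Entrez gene ID 208715, chromosome 13, 119690379 to 119708260 of GRCm38, plus strand) had 8.86, 6.49 and 7.78 FPKM in C26 replicates 1 to 3 and 13.3, 12.4 and 10.01 FPKM in control replicates 1 to 3. Every C26 muscle was below every control, and the means were 7.71 ± 1.19 and 11.9 ± 1.7 FPKM (SD, n = 3 each). The log2 change was -0.39 (SE 0.20, limma adjusted p = 0.181) and was not called. With FPKM used as deposited, without any rescaling, it was -0.57 and called (limma adjusted p = 0.0428). The annotated exons of Hmgcs1 share 557 bases with an antisense gene, Gm48342, and the strand of the libraries is not given in the sources used here.

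IDI1 turns isopentenyl diphosphate into its isomer, the starter unit of all longer isoprenoids. Idi1 (Entrez gene ID 319554, chromosome 13, 8885501 to 8892451, plus strand) had 0.85, 0.98 and 0.82 FPKM in the C26 muscles. The controls had 3.29, 3.78 and 5.07 FPKM. The groups lay well apart, with means of 0.883 ± 0.085 and 4.05 ± 0.919 FPKM (SD, n = 3 each). Idi1 fell by 1.47 on the log2 scale (SE 0.16, limma adjusted p = 0.00338), and it was called in all 6 fits that each left out a muscle, with log2 fold changes from -1.60 to -1.36, the latter without control replicate 3. The related Idi2 is not among the listed genes. The exons of Idi1 share 323 bases, 9.22% of its exonic bases, with Gm48574 on the other strand, and reads there cannot be assigned without strand.

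FDFT1 is the first enzyme committed to sterols. Fdft1 (Entrez gene ID 14137, chromosome 14, 63145150 to 63179578, minus strand) had 240, 163 and 139 FPKM in the C26 muscles. The controls had 32.3, 36.8 and 25.3 FPKM. The lowest C26 muscle was thus several-fold above the highest control, and the means were 180 ± 52.5 and 31.5 ± 5.8 FPKM (SD, n = 3 each). The log2 change was 2.69 (SE 0.27, limma adjusted p = 0.00255), and alone among the 7 it also changed by more than 4-fold after adding 1, the study's further criterion for a differentially expressed gene (DEG), which 1.76% of all genes met upward and 1.73% downward. It stayed called in all 6 fits with a muscle left out, between 2.47 and 2.90. In each library Fdft1 ranked above 96.2% to 97.7% of listed genes by FPKM in C26 muscles and above 83.6% to 88.6% in controls.

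The 774 bases at the 3′ end of Fdft1, 18.3% of its annotated exonic bases, overlap the end of Ctsb on the other strand. Ctsb encodes the lysosomal protease cathepsin B. Without strand, reads in that stretch cannot be assigned to either gene. Ctsb had 288, 242 and 173 FPKM in C26 muscles and 228, 187 and 154 in controls, a log2 change of 0.50 that was not called (limma adjusted p = 0.144). The ratio of Fdft1 to Ctsb was 0.673 to 0.831 in C26 muscles and 0.141 to 0.197 in controls, 4.62-fold higher in the C26 group (two-sided exact permutation test, p = 0.1, the smallest that 3 samples against 3 allow, and 0.167 adjusted over the 5 ratios computed). Neil2, a DNA glycosylase gene beyond the other end of Fdft1, rose as well, from 0.40 to 0.67 FPKM in controls to 1.64 to 3.59 in C26 muscles (log2 change 1.69, limma adjusted p = 0.00552). The part of the overlap in the Fdft1 result was not tested.

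SQLE adds the first oxygen to squalene and is a known control point of the pathway. Sqle (Entrez gene ID 20775, chromosome 15, 59315077 to 59331192, plus strand) had 0.22, 0.40 and 0.23 FPKM in C26 muscles and 0.98, 0.34 and 1.85 in controls. Control replicate 2 lay within the range of the C26 muscles, so the groups overlapped. The means were 0.283 ± 0.101 and 1.06 ± 0.758 FPKM (SD, n = 3 each), with a log2 change of -0.70 (SE 0.31, limma adjusted p = 0.122). Sqle was called only when control replicate 2 was left out, at -1.01 (limma adjusted p = 0.0326), and without control replicate 3 it was -0.40. Quantile normalization gave -0.32 (limma adjusted p = 0.403), and a pseudocount of 0.1 gave -1.28 (limma adjusted p = 0.092). By an estimate from the steps of low FPKM values, these levels rest on about 9 to 18 reads in C26 muscles and 16 to 69 in controls. The values with the fewest reads carry the largest counting error.

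Squalene synthase and squalene epoxidase act in succession, so the ratio of their levels was compared. The ratio of Fdft1 to Sqle FPKM was 1090, 406 and 605 in the C26 muscles. It was 33, 108 and 13.7 in the controls. All C26 ratios were above all control ratios (two-sided exact permutation test of the log2 ratio, p = 0.1, adjusted 0.167). The ratio of Fdft1 to Idi1, which acts upstream, was 166 to 282 in C26 muscles and 4.99 to 9.82 in controls, with the same p. Every C26 muscle was already above every control for Fdft1 and below every control for Idi1. The separation of this ratio was therefore fixed beforehand, and its p adds nothing to those results.

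CYP51 removes the 14-alpha methyl group of lanosterol. Cyp51 (Entrez gene ID 13121, chromosome 5, 4081145 to 4104746, minus strand) had 0.27, 0.43 and 0.60 FPKM in C26 muscles and 0.92, 0.98 and 2.22 in controls. All C26 values were below the controls, and control replicate 3 was the highest. The means were 0.433 ± 0.165 and 1.37 ± 0.734 FPKM (SD, n = 3 each), and the log2 change was -0.76 (SE 0.26, limma adjusted p = 0.0629). The size depended on the setting. A pseudocount of 0.1 in place of 1 gave -1.28 and a call (limma adjusted p = 0.047), quantile normalization gave -0.35 and no call (limma adjusted p = 0.306), and without control replicate 3 the change was -0.51 and not called (limma adjusted p = 0.0975). About 21 to 33 reads per C26 muscle and 60 to 119 per control stand behind it by the same estimate. Its exons share 166 bases, 3.76% of the total, with Akap9 on the other strand.

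Of the other enzymes of the chain, 16 of 17 were listed, and 8 of these were called lower and 0 higher in C26 muscles. Their log2 changes were negative in 14 and positive in 2, with a median of -0.77. In 12 of the 16, every C26 muscle was below every control, and the groups overlapped in the other 4. These counts stand beside 14.5% of all genes called lower and 34.6% with C26 below every control. With FPKM as deposited, 14 of the 21 listed enzymes, the 5 described above included, were called lower, against 9 after rescaling. Without C26 replicate 1 the 9 became 5.

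In the mevalonate arm, Acat2, which joins acetyl-CoA units, fell by 1.54 on the log2 scale (limma adjusted p = 0.0051). It had 1.11 to 1.67 FPKM in C26 muscles and 4.66 to 6.70 in controls. Fdps, farnesyl diphosphate synthase, fell by 1.62 (limma adjusted p = 0.00938), from 23.7, 24.7 and 27.4 FPKM in controls to 5.67, 5.09 and 10.1. Mvd, which makes isopentenyl diphosphate, had a log2 change of -0.02. Mvk and Pmvk, the kinases before it, had -0.70 and -0.85 with adjusted p of 0.0608 and 0.0888 from limma. So the genes on both sides of the farnesyl diphosphate step, Fdps and Fdft1, were called in opposite directions.

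In the sterol arm, Tm7sf2, a sterol C14 reductase, fell most, by 1.82 (limma adjusted p = 0.00205), with 0.43 to 0.61 FPKM in C26 muscles and 3.58 to 4.2 in controls. Lbr, the lamin B receptor, has the same reductase activity and was not called, with a log2 change of 0.04 (limma adjusted p = 0.919). Dhcr7, the last reductase of the Kandutsch-Russell branch, fell by 1.6 on the same scale. Nsdhl, Msmo1 and Hsd17b7, which act together in removing the C4 methyl groups, fell by 1.28, 0.89 and 0.58. Ebp, Sc5d and Lss, lanosterol synthase, were not called, with log2 fold changes of 0.24, -0.43 and -0.43. Acat2, Fdps, Tm7sf2 and Dhcr7 were called in all 6 fits with a muscle left out. Msmo1 lost its call without C26 replicate 1 (limma adjusted p = 0.0646), Nsdhl in 4 fits and Hsd17b7 in 5, where their largest adjusted p were 0.0682 and 0.116.

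**Figure D2:**
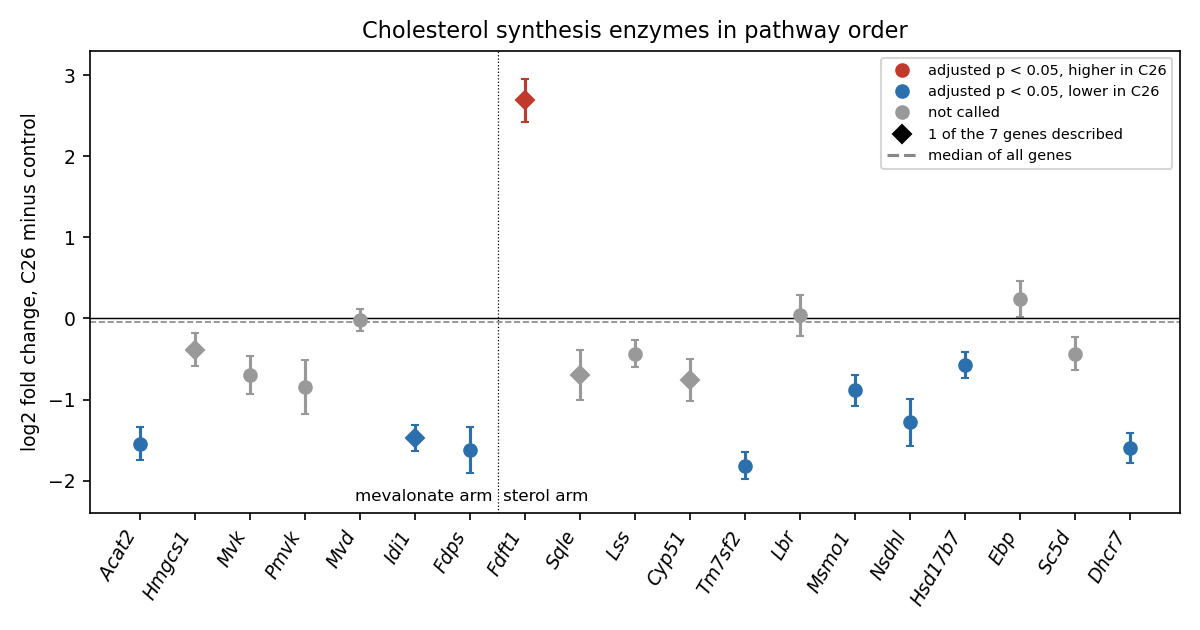
Log2 fold change (C26 minus control, on the log2 scale after adding 1) with its standard error for 19 of the 21 listed cholesterol synthesis enzymes in pathway order, with diamonds for 5 of the genes described, and red or blue where called higher or lower. Fdft1 stands alone at 2.69, at the border of the mevalonate and sterol arms, while 8 of the enzymes shown, and 1 of the 2 not shown, are called lower.

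Srebf2 encodes the precursor of SREBP2 and holds the microRNA gene Mir33 in an intron. Srebf2 (Entrez gene ID 20788, chromosome 15, 82147181 to 82205379, plus strand) had 4.48, 4.80 and 3.50 FPKM in C26 muscles and 5.88, 6.68 and 15.7 in controls. All C26 values were below all controls, and control replicate 3 was far above the others. The means were 4.26 ± 0.677 and 9.42 ± 5.46 FPKM (SD, n = 3 each), and the log2 change was -0.73 (SE 0.33, limma adjusted p = 0.128). Without control replicate 3 it was -0.36, and it was called under 0 of the 7 other settings and 0 of the 6 fits with a muscle left out. Sqle, Cyp51 and Idi1 were also highest in control replicate 3, the muscle with the B cell gene Cd79b, and the part of those cells in these values was not tested. Hmgcs1, Fdft1 and Insig1 had their lowest control value there.

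INSIG1 is the sterol-sensing anchor of SCAP, and its gene is itself a target of SREBP2. Insig1 (Entrez gene ID 231070, chromosome 5, 28071363 to 28078662, plus strand) had 18.5, 21.6 and 8.17 FPKM in C26 muscles and 8.01, 14.4 and 6.58 in controls. C26 replicate 3 lay among the controls, so the groups overlapped. The means were 16.1 ± 7.01 and 9.67 ± 4.18 FPKM (SD, n = 3 each), and the log2 change was 0.87 (SE 0.44, limma adjusted p = 0.165). Without C26 replicate 3 it was 1.32 and called (limma adjusted p = 0.0409), and in no other fit with a muscle left out was it called. Its paralogue Insig2 had 9.22 to 13.96 FPKM in C26 muscles and 14.1 to 17.8 in controls, a log2 change of -0.33 (limma adjusted p = 0.321). The ratio of Insig1 to Insig2 was 2, 2.25 and 0.585 in C26 muscles and 0.509, 0.811 and 0.466 in controls (two-sided exact permutation test, p = 0.2, adjusted 0.25).

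Among the 9 listed genes of SREBP control, Srebf2 and Insig1 included, 1 was called lower and 1 higher, where 14.5% and 19.4% of all genes were. Srebf1 fell by 1.02 on the log2 scale (limma adjusted p = 0.0174), with 7.75, 6.70 and 6.30 FPKM in C26 muscles and 20.6, 18.3 and 12.8 in controls, and lost its call in 4 of the 6 fits with a muscle left out (largest adjusted p 0.0674). Mbtps2, the protease that makes the second cut in SREBP precursors, rose by 0.92 (limma adjusted p = 0.0129), and lost its call without C26 replicate 1 or control replicate 1 (largest adjusted p 0.0542). Scap, with 5.08 to 7.39 FPKM in C26 muscles and 6.13 to 7.30 in controls, had a log2 change of 0.06. Mbtps1, the protease of the first cut, had -0.03, and Rnf139, a ubiquitin ligase of the endoplasmic reticulum, had 0.25, all not called. Outside the sterols, Ggps1, which makes the geranylgeranyl group of small GTPases from farnesyl diphosphate, had a log2 change of 0.65 (limma adjusted p = 0.0363), but was called in only 1 of the 6 fits with a muscle left out. Pdss1 and Pdss2, which build the ubiquinone tail, and Dhdds, of dolichol synthesis, had -0.60, -0.73 and -0.24 and were not called.

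Of 10 listed genes of cholesterol uptake and transport, 2 were called higher and 1 lower, beside 19.4% and 14.5% of all genes. Npc1, which moves cholesterol out of the lysosome, rose by 4.01 on the log2 scale (SE 0.23, limma adjusted p = 0.000822). It had 68.4, 43.8 and 38.0 FPKM in C26 muscles and 2.82, 3.10 and 2.76 in controls, and was called in all 6 fits with a muscle left out. Its partner in the lysosomal lumen, Npc2, was not called, with 13.7 to 19.4 FPKM in C26 muscles and 22.0 to 33.1 in controls (log2 change -0.42, limma adjusted p = 0.121). Lipa, the lysosomal lipase that frees cholesterol from its esters, fell by 0.57, and lost its call in 3 of the 6 fits. Vldlr, a lipoprotein receptor of muscle and fat, rose by 1.67 (limma adjusted p = 0.00589), with 49.8 to 76.2 FPKM in C26 muscles and 19.5 to 26.2 in controls. Stard4 and Tmem97, both SREBP2 targets, had -0.55 and -0.39 and were not called.

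Of 7 listed genes of efflux, storage and oxysterols, 2 were called higher and 2 lower, beside the same shares of all genes. Cyp27a1, which makes 27-hydroxycholesterol, rose by 1.46 (limma adjusted p = 0.00394), with 96.5 to 145 FPKM in C26 muscles and 51.8 to 54.7 in controls. Nr1h2, the oxysterol receptor LXR beta, rose by 0.95 and lost its call without C26 replicate 1 (limma adjusted p = 0.0538). Apoe, a carrier of secreted cholesterol, fell by 1.27, and the exporter Abca1, a known LXR target, by 0.71. Apoe lost its call in 3 of the 6 fits with a muscle left out and Abca1 in 2.

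**Figure D3:**
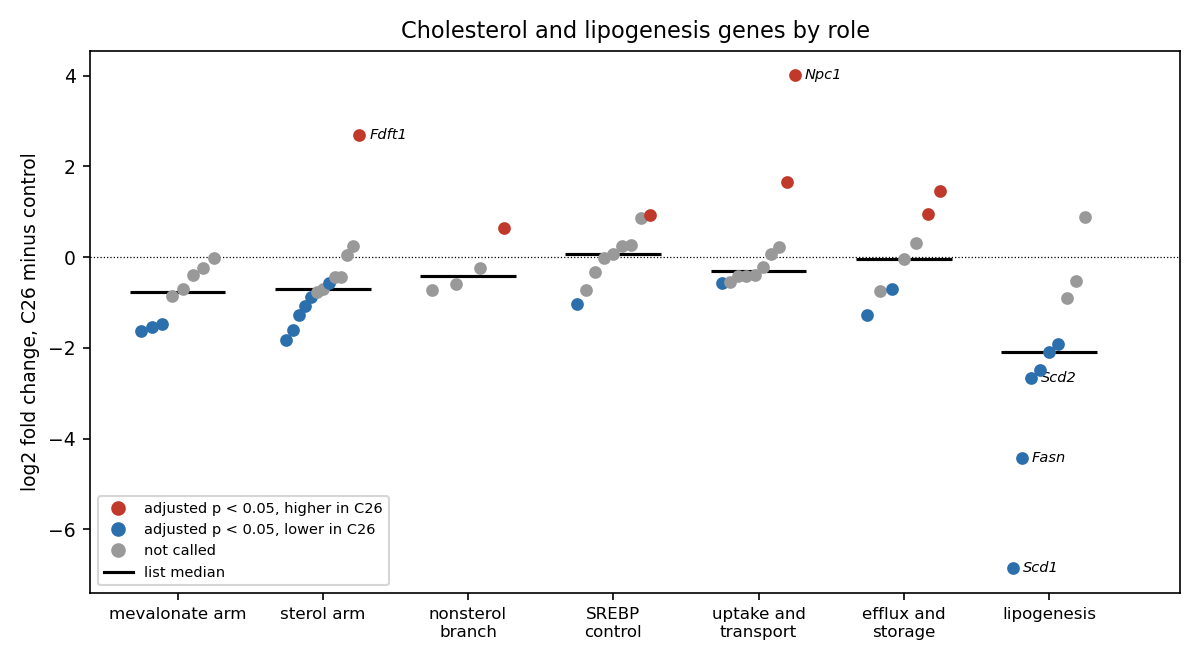
Log2 fold change (C26 minus control) of every listed gene of 7 lists by role, with the list median as a bar and colours for calls. Fdft1 and Npc1 stand above their lists at 2.69 and 4.01, and the lipogenesis genes reach the lowest values.

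The fatty acid synthesis genes, known targets of SREBP1, were described beside them, with 6 of 9 called lower, 0 called higher and a median log2 change of -2.10. Of all genes, 14.5% were called lower and 19.4% higher, and the median log2 change was -0.05. Scd1 and Scd2, stearoyl-CoA desaturases, fell by 6.86 and 2.67. Fasn, fatty acid synthase, fell by 4.43, and Pnpla3, a lipid droplet protein, fell by 2.49. Without C26 replicate 1 or 2, or control replicate 1, 2 of the 9 were called lower. Scd1 had 670, 805 and 72.9 FPKM in control replicates 1 to 3. Scd2 had 0.95 to 1.82 FPKM in C26 muscles and 11.9 to 16.3 in controls, and 14.7 in control replicate 3. The difference between the lists was not tested. All 9 fat cell markers had negative log2 changes too, and 6 were called lower, beside 14.5% of all genes. Each of these 6 lost its call in 4 or 5 of the 6 fits with a muscle left out. Adipoq had 0.18 to 3.11 FPKM in C26 muscles and 176, 79.3 and 11.5 in control replicates 1 to 3. Summed, the fat cell markers were highest in control replicate 1 (4212 FPKM), and the fatty acid synthesis genes in control replicate 2 (1161 FPKM). Among controls both sums were lowest in control replicate 3, at 550 and 181 FPKM. The 16 other cholesterol enzymes summed to 101 FPKM in control replicate 3, 90.2 and 92.0 in the other controls and 39.5 to 46.9 in C26 muscles. They differed among themselves in that muscle. Fdps, with 27.4 FPKM, Lbr, with 11.9, Mvd, Msmo1, Ebp and Dhcr7 had their highest control value there, whereas Acat2, Mvk, Pmvk, Nsdhl, Tm7sf2 and Sc5d had their lowest, as did Hmgcs1 and Fdft1.

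Schwann cells make cholesterol for myelin, so their 8 markers were examined too. They summed to 133, 48.6 and 117 FPKM in control replicates 1 to 3 and to 24 to 49.6 in C26 muscles, and 1 of the 8, Pmp22, was called lower. Sqle was the only one of the 7 genes with its lowest control value in control replicate 2, where the summed Schwann cell markers were also lowest. Idi1 had 3.78 FPKM in that muscle, above control replicate 1. Pmp22 lost its call in all 6 fits with a muscle left out. For all 6 fibroblast markers every C26 muscle was below every control, and 4 were called lower, but Dcn and Pdgfra were not. They summed to 159 to 199 FPKM in C26 muscles and 356 to 424 in controls. Of 5 endothelial markers, Kdr and Emcn were called lower, at -0.83 and -0.50, and the sums were 42.4 to 45.5 FPKM in C26 muscles and 52.8 to 80.8 in controls. The Schwann cell, fibroblast and endothelial markers called lower stand beside 14.5% of all genes called lower. Macrophage markers varied within both groups, with 0 of 6 called. The part of these cells in the results was not tested.

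**Figure D4:**
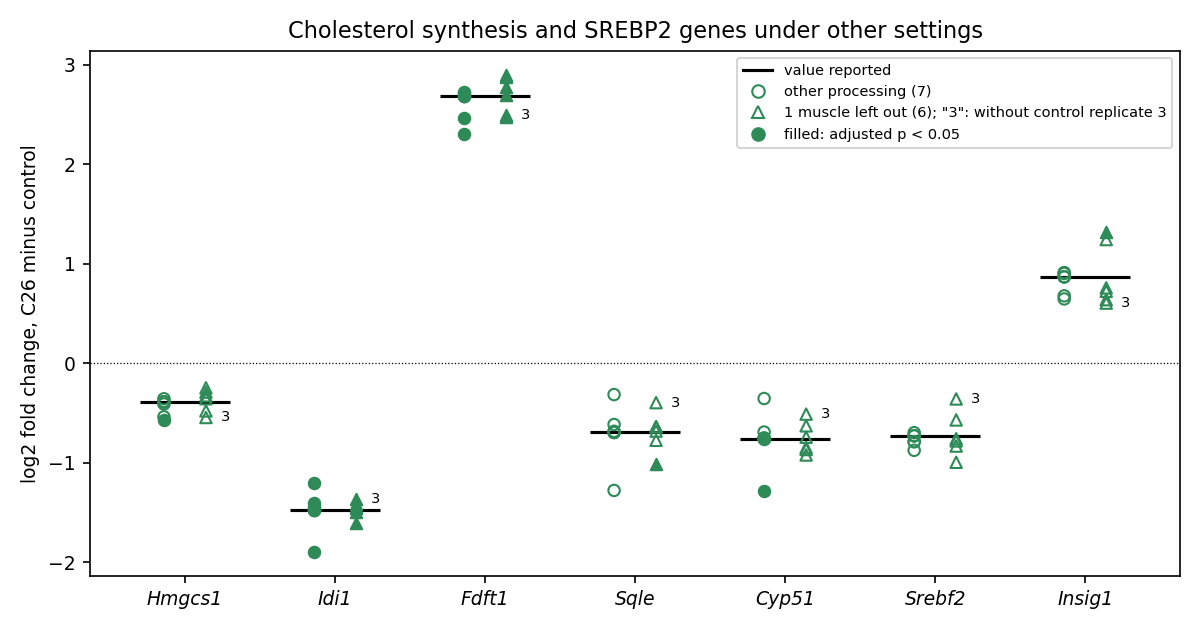
Log2 fold change (C26 minus control) of the 7 genes under 7 other ways of processing (circles) and with 1 muscle left out in each of 6 fits (triangles), filled where called, with the reported value as a bar and "3" beside the fit without control replicate 3. Fdft1 and Idi1 are filled throughout, and no value crosses 0.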

How the data were processed

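The authors removed rRNA with RNase H, sequenced single-end reads of 50 bases, filtered out low-quality, adaptor and rRNA reads, and estimated expression with RSEM. The methods name bowtie2 and GRCm38.p5. The submitters' processing notes name HISAT2 2.0.4, Bowtie2 2.2.5, RSEM 1.2.12 and mm9, so the build behind the values is uncertain, and the coordinates given here are those of GENCODE M21 on GRCm38. The deposited values are FPKM per Entrez gene ID with 2 decimals, each above 0. Symbols were found for 13327 of 13363 IDs.

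FPKM were rescaled to a sum of 1000000 per sample (TPM) and divided by TMM factors (30% of log ratios and 5% of levels trimmed, unweighted). Log2 values after adding 1 were compared with limma 3.58.1 (R 4.3.3), two-sided, with Benjamini-Hochberg adjustment over all genes. Standard errors are moderated. The script was tested on simulated data. Ratios were compared by exact permutation with scipy 1.17.1.

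Read counts were not analysed here. Low FPKM of genes with 1 transcript moved in steps, and the step that fitted best corresponds to 13.8 to 20 (in units of 1000000) reads per sample. Reads per gene were estimated from it with the longest coding transcript, and are approximate.

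The 7 genes, the lists and the motifs were chosen with earlier results of these data known. Named were all 7 genes with every value, called genes of the synthesis and SREBP control lists, Insig2, Srebf1 and Scap in any case, up to 4 called genes of each other list by size of change, and the 5 genes most like the 7 in pattern. Other uncalled genes, markers and genomic neighbours were named after their values were seen. Some genes of the lists are not reported here by name. Each fit was repeated with 0.1 as pseudocount, a filter on mean TPM (1 or more), quantile normalization, TPM left without TMM factors, the deposited FPKM unscaled, an intensity trend in limma, the replicate number as a block, and leaving out each muscle.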

Additional observations from a re-analysis of the deposited data

How the results depend on the processing

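None of the 7 genes changed direction under any alternative, whereas the uncalled Mvd, Lbr, Scap, Mbtps1 and Rnf139 changed sign under at least 1. Fdft1 and Idi1 were called under all 7 alternatives and in all 6 fits with a muscle left out. With a pseudocount of 0.1, 566 genes were downregulated DEGs (231 as reported) and 2 of the 7 genes were called lower. With FPKM as deposited, 1678 genes were called higher and 2504 lower, against 2589 and 1932 as reported, with 148 upregulated DEGs, 2 of the 7 genes lower, 14 synthesis enzymes lower and 0 nonsterol genes higher. TPM without TMM also gave 0 nonsterol genes higher. Quantile normalization gave 1 efflux and storage gene higher, 1 lower, and 3 lipogenesis genes lower. The replicate number as a block gave 1235 genes lower, 2 of the 7 genes lower (Cyp51 being added, limma adjusted p = 0.041), 0 nonsterol genes higher and 0 uptake and transport genes lower. Same-numbered muscles did not deviate together, with correlations of -0.04, -0.08 and -0.11 across genes.

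With each muscle left out in turn, 1127 to 3311 genes were called higher and 669 to 2160 lower, and 176 to 376 and 135 to 269 were upregulated and downregulated DEGs. Of the 7 genes, 1 to 2 were called higher and 1 to 2 lower. Of the synthesis enzymes, 1 to 2 were higher and 5 to 11 lower, with the 5 in the fit without C26 replicate 1. SREBP control genes gave 0 to 2 higher and 0 to 1 lower, nonsterol genes 0 to 1 higher and 0 to 2 lower, uptake and transport genes 0 to 2 lower, efflux and storage genes 1 to 2 higher and 0 to 2 lower, and lipogenesis genes 0 to 1 higher and 2 to 8 lower. The cause of these changes was not tested. Depth limits Sqle and Cyp51 most, whose C26 values rest on few reads. By the same estimate Idi1 came next, with about 35 to 51 reads in C26 muscles and 165 to 208 in controls.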

Other observations

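The genes outside the lists whose log2 values followed the mean z-score of the 7 genes most closely over the 6 samples were Prdx4 (Pearson r = 0.99), an endoplasmic reticulum peroxiredoxin, Rpia (0.99) of the pentose phosphate pathway, Osbpl7 (0.98), of the oxysterol-binding protein family, Lsm8 (0.98) and Tnfaip3 (0.98). Tnfaip3, an inhibitor of NF-kappaB signaling, had 0.14 to 0.39 FPKM in C26 muscles and 1.42, 1.44 and 4 in controls. Prdx4 had 2.45 to 3.22 FPKM in C26 muscles and 5.26 to 9.01 in controls. The mean z-score was -0.39 to -0.20 in C26 muscles and 0.04 to 0.52 in controls, and 2.78% of all genes reached r = 0.9. Within the 7, each of which is itself part of the mean, Idi1 followed the mean most closely (r = 0.95). Fdft1 (-0.88) and Insig1 (-0.52) ran against it. These correlations describe 6 samples of 2 groups.

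Of the 14 other synthesis enzymes with a promoter in the table, 12 held a CCAAT box and 5 held the SRE-like letters, Dhcr7, Hsd17b7, Msmo1, Pmvk and Sc5d. Among promoters of the listed genes the shares were 34.9% and 9.58%. Washc5, the gene next to Sqle, rose from 5.02 to 6.10 FPKM in controls to 8.90 to 12.5 in C26 muscles (log2 fold change 1.05, limma adjusted p = 0.00648), and Ccdc134, next to Srebf2, had a log2 fold change of -0.82 (limma adjusted p = 0.0421). Both were chosen after their values were seen. Of the 14 neighbours and paralogues examined, Ctsb among them, 2 were called higher, 2 lower and 10 not, beside 33.8% of all genes called in either direction. The other 2 called were Neil2 and Fzd1 (log2 change -0.75, limma adjusted p = 0.0325).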
